A study of Mus musculus with 32 samples.

Results

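The DNA replication genes described here are a list of 46 genes whose products license and fire replication origins, unwind DNA, copy it or supply its deoxynucleotides. The members were chosen by name. Of the 46, 45 have a row among the 18588 genes of the table of log2 signals, Mcm10 was not analysed here, and no member was dropped by a filter on low signal. The signals come from RNA sequencing of microglia of rTg4510 and wild type (WT) mice at 2, 4, 6 and 8 months of age. Female rTg4510 mice carry human tau with the P301L mutation behind a tetracycline-responsive element and a second transgene, a tetracycline-controlled transactivator under the CaMKIIα promoter, so that the mutant tau is made after birth in forebrain neurons. WT animals were female littermates without either transgene, with the strain label 129/FVB F1. Cells were captured from dissociated forebrain with CD11b magnetic beads, each library came from the pooled forebrains of several animals, and each group has 4 libraries. The authors excluded 4 libraries that failed quality control (the third replicate of WT and of rTg4510 at 4 months, and the fourth of both at 8 months), which leaves 4 libraries per genotype at 2 and 6 months, 3 at 4 and 8 months, and 28 in all.

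DNA replication starts at origins bound by the origin recognition complex, onto which Cdc6 and Cdt1 load the ring-shaped MCM helicase. Cdc45 and the GINS complex then turn MCM into an active helicase, polymerase alpha with primase lays primers, and polymerases epsilon and delta, held to DNA by the PCNA clamp, copy the strands. Many of these genes are targets of the E2F transcription factors and are transcribed most strongly around the entry into S phase, whereas resting adult microglia divide rarely.

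The pooled libraries are bulk samples, so fewer cells of a type and less RNA per cell cannot be told apart. All libraries share a median log2 signal of 5.63 by the authors' normalization. The table of signals holds no read totals, so no depth per library is given. The lowest value of a library, which was read as no counts, lay between 1.23 and 1.92 in the kept libraries. No group of any member had all of its libraries at or under the level taken as 3 counts. The microglial genes were abundant in every library. The summed signal of 8 microglial markers lay between 14.47 and 15.18 on the log2 scale, against 7.41 to 10.37 for 8 neutrophil markers and 7.40 to 10.59 for 6 oligodendrocyte markers. It was higher, 9.49 to 11.56, for 6 astrocyte markers and 9.87 to 11.03 for 5 border macrophage markers.

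The promoters of 4 members are shown because they carry the 8-base E2F motif and because the genes were higher in rTg4510 in comparisons that follow. The capitals mark matches to TTTCCCGC, TTTCGCGC, TTTGCCGC or TTTGGCGC on either strand, and matches that overlap form 1 longer run. Each window runs from 250 bases before the RefSeq transcription start to 50 bases into the transcript, on GRCm38.p6, 5′ to 3′ along the gene. Mcm6 lies at chr1:128359656-128359955 on the minus strand, Mcm5 at chr8:75109259-75109558 on the plus strand, Pole2 at chr12:69228141-69228440 on the minus strand and Cdt1 at chr8:122567765-122568064 on the plus strand.
Mcm6: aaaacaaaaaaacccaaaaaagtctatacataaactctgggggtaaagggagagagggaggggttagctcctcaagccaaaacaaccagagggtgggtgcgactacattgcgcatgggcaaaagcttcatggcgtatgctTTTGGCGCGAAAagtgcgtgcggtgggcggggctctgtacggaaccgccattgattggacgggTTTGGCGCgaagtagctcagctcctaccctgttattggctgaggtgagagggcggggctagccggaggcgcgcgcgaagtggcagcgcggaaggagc
Mcm5: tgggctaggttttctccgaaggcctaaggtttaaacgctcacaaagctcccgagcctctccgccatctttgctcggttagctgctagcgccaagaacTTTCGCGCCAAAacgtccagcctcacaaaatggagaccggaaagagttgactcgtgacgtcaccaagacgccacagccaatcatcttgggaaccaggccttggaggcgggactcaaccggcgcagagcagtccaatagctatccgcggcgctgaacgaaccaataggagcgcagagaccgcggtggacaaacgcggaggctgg
Pole2: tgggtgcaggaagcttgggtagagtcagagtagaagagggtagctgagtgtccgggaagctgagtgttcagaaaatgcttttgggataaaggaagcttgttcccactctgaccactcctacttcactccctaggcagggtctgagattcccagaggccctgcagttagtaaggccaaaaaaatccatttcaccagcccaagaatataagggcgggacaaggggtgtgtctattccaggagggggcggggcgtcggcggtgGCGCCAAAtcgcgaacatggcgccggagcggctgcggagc
Cdt1: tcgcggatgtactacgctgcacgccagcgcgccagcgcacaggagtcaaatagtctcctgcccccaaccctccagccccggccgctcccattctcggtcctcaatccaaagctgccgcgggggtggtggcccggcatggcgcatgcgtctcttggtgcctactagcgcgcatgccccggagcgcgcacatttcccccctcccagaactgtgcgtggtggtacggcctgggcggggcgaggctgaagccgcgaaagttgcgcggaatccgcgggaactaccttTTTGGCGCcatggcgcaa

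In Mcm6 the motif began 110, 106 and 47 bases before the start. In Mcm5 it began 153 and 149 bases before the start. It began 10 bases after the start in Pole2 and 32 bases after it in Cdt1. RefSeq promoters were matched for 38 members, which have 47 promoter windows. The motif was present in 17 of the 47 windows (36.2%) and in 16 of the 38 genes, against 3.72% of all 14904 windows. Among the members that were differentially expressed at 4 months and have a window, 3 of 6 carried it, and so did 13 of the 32 other genes with a window. The CCAAT box (CCAAT on either strand) was present in 53.2% of the members' windows and 37.7% of all windows, and TTTGAA or TTCGAA on either strand, as in the CHR element of late cell cycle genes, in 14.9% and 14.5%. A match is a description of these letters and does not show that a factor binds there.

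At 4 months 9 replication genes were higher in rTg4510 microglia and none was lower, whereas at 2, 6 and 8 months the genotypes differed in few of them. The 9 genes were the helicase subunits Mcm2, Mcm5, Mcm6, Gins1 and Gins2, the primase subunit Prim1, the polymerase epsilon subunits Pole and Pole2, and the clamp Pcna. Mcm6 had the largest difference, 2.43 fold. A differentially expressed gene (DEG) is one with a false discovery rate (FDR) under 0.05 over all 18588 genes and a change above 1.5 fold, from limma with unmoderated variances on 20 residual degrees of freedom.

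The 9 DEGs at 4 months are 20% of the members, where 13.8% of all genes were DEGs and 9.47% were DEGs higher in rTg4510. Counting the FDR alone, 17 members were higher, 14.1% of all genes were higher by that rule, and 1 member, the clamp loader subunit Rfc3, was lower. The log2 difference was above 0 for 37 of 45 members, against 46.1% of all genes, and its median was 0.27 over the members and -0.04 over all genes. All rTg4510 libraries lay above all WT libraries for 18 members at 4 months, against 19.1% of all genes, and below them for 2 members, against 17.5%. At 2 months limma called 0 members, also with moderated variances, where 1.98% of all genes were DEGs, and 8 members had an unadjusted p under 0.05, against 16.5% of all genes. At 6 months 3 members were DEGs (6.67% of the members, where 19.8% of all genes were DEGs): Cdt1 and Pcna were higher in rTg4510 than in WT and Rrm2 was lower. At 8 months 4 were DEGs (8.89%, where 15.9% of all genes were DEGs): Gins2, Cdt1 and Rfc4 were higher in rTg4510 than in WT and Rrm2 was lower. The shares of DEGs among the members at 6 and 8 months are below the shares among all genes. The members for which all rTg4510 libraries lay above all WT libraries numbered 4, 4 and 7 at 2, 6 and 8 months (7.49%, 18.2% and 21.2% of all genes), and those for which they lay below numbered 2, 3 and 9 (3.51%, 14.6% and 15.5% of all genes).

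**Figure D1:**
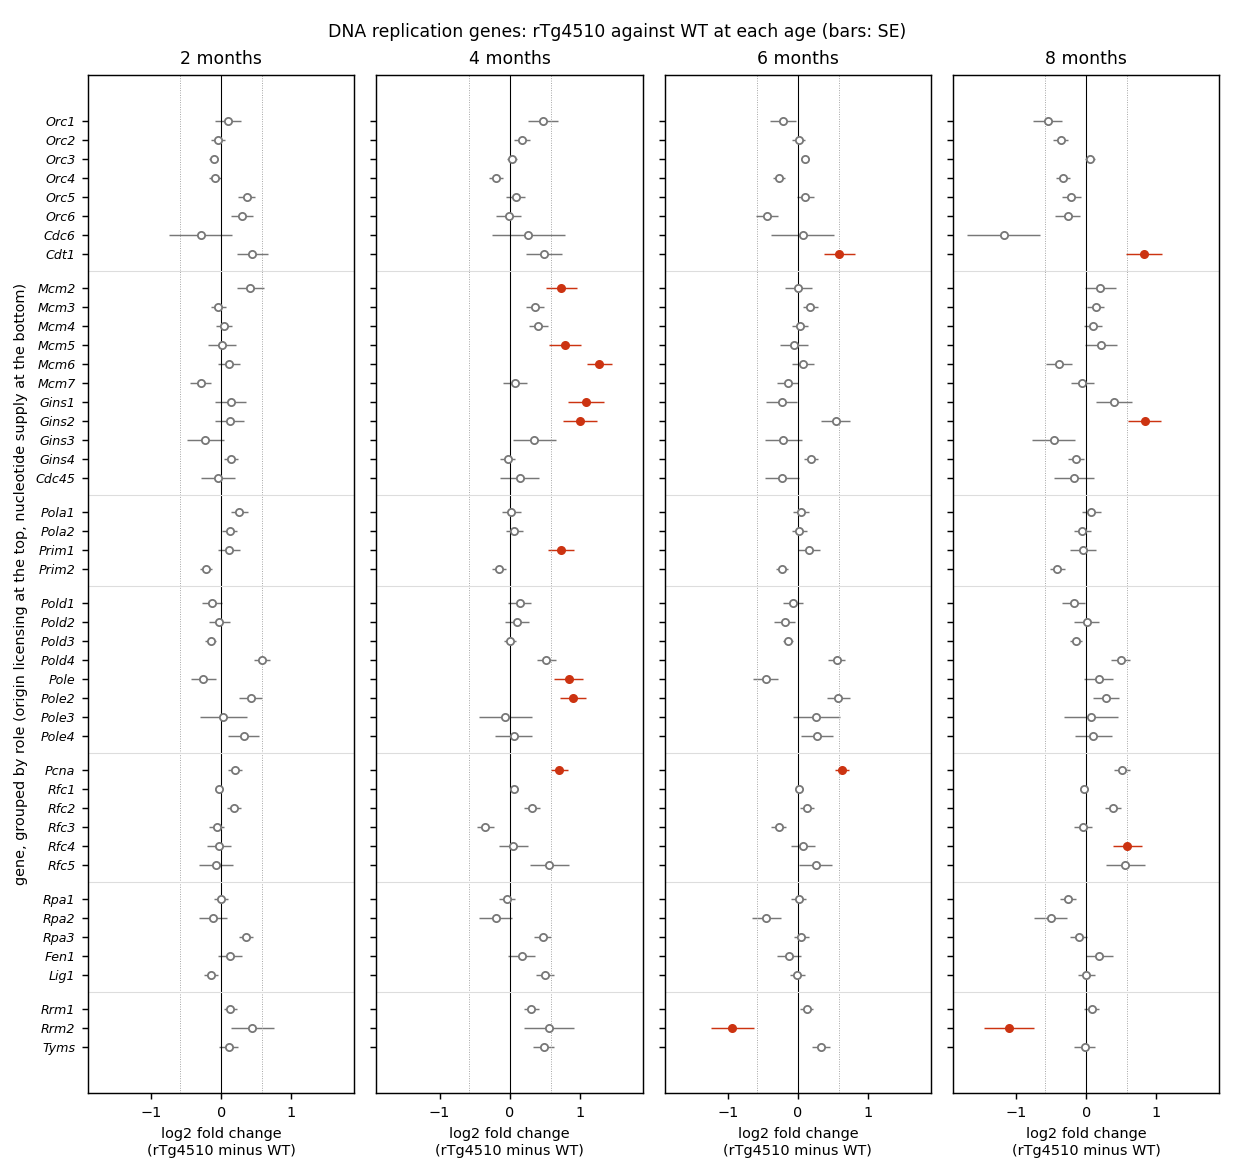
Log2 fold change (rTg4510 minus WT) of each of the 45 replication genes at 2, 4, 6 and 8 months, with its SE, grouped by role, where filled red points are DEGs, open grey points are not, and dotted lines mark 1.5 fold. Filled points number 0, 9, 3 and 4 at the 4 ages, and the 9 at 4 months all lie to the right of 0.

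Averaged over the 45 members, each taken as its difference from its mean in all WT libraries, the rTg4510 libraries at 4 months stood at 0.31 ± 0.03 on the log2 scale (SD, n = 3). Their lowest value was 0.28 and their highest was 0.33. Every other kept library lay between -0.09 and 0.14, so the rTg4510 libraries at 4 months lay above all others. The WT group means were -0.07 at 2 months, -0.01 at 4, 0.07 at 6 and 0.01 at 8 months, and those of rTg4510 were 0.00, 0.31, 0.08 and -0.01. The mean weights all 45 members alike and is a description, with no test.

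**Figure D2:**
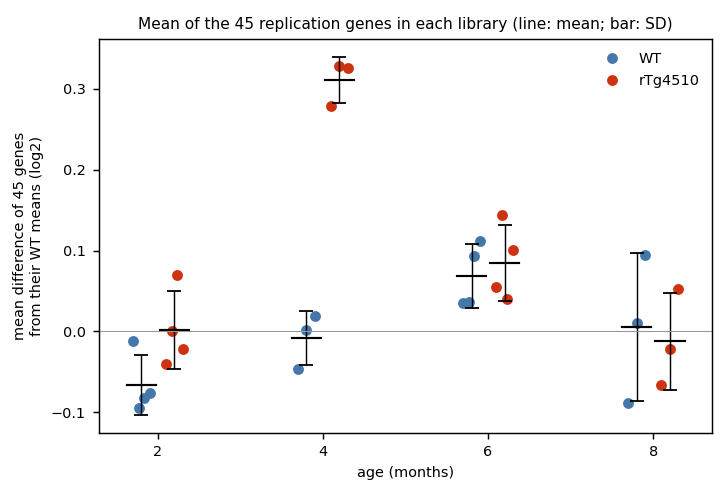
Mean over the 45 replication genes of the difference from their WT means (log2, y axis) by age in months (x axis), with 1 point for each kept library, a line for the group mean and a bar for the SD. The 3 rTg4510 libraries at 4 months lie between 0.28 and 0.33, above all other libraries.

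Of the 9 DEGs at 4 months, 5 are among the 11 measured helicase genes. Mcm6, an MCM ring subunit, had log2 signals of 5.06, 5.06 and 5.20 in the rTg4510 libraries at 4 months and 4.14, 3.86 and 3.47 in the WT libraries. The rTg4510 values at 4 months lay above those of every other kept library, whose highest was 4.42, in rTg4510 at 6 months. The log2 fold change was 1.28 (SE 0.18, FDR 1.79e-05). Mcm6 was among the members that an alternative filter at the 25th percentile of mean signal removed. Gins1, a GINS subunit, had signals of 5.04, 5.25 and 5.53 in rTg4510 and 4.07, 3.90 and 4.57 in WT at 4 months, without overlap. Its log2 fold change was 1.09 (SE 0.26, FDR 0.00302). At 2 months the Gins1 signals were 4.63, 4.60, 5.23 and 5.05 in rTg4510 and 4.98, 4.65, 4.47 and 4.89 in WT. Part of the difference at 4 months thus lay in lower WT signals than at 2 months (unadjusted p under 0.05 in limma, not called). Single rTg4510 libraries at 2 months (5.23) and 8 months (5.49) lay within the rTg4510 range at 4 months.

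Gins2, another GINS subunit, had signals of 5.96, 5.81 and 6.06 in rTg4510 and 5.21, 4.88 and 4.75 in WT at 4 months, so that the log2 fold change was 1.004 (SE 0.24, FDR 0.00329). At 8 months it had 5.57, 5.66 and 6.08 in rTg4510 and 5.44, 4.85 and 4.52 in WT, so that it was 0.83 there (SE 0.24, FDR 0.0121). The groups did not overlap at either age. Gins2 is reported as uncertain, since 67.3% of its annotated exon bases also belong to Gse1 on the opposite strand and the sources used here do not say whether reads were counted by strand. Gse1 itself had log2 differences of 0.08 (FDR 0.505) at 4 months and 0.41 (FDR 0.000445) at 8 months, and its part in the Gins2 result was not tested.

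Mcm2 and Mcm5, further subunits of the ring, were also higher at 4 months. For Mcm2 the signals were 5.15, 5.04 and 5.31 in rTg4510 and 4.15, 4.52 and 4.61 in WT (log2 fold change 0.74, SE 0.22, FDR 0.0191). For Mcm5 they were 5.04, 4.78 and 4.81 in rTg4510 and 4.07, 4.47 and 3.71 in WT (log2 fold change 0.79, SE 0.23, FDR 0.0151). All rTg4510 libraries lay above all WT libraries for both genes.  Mcm3 and Mcm4 passed the FDR at smaller differences of 0.36 and 0.41 (FDR 0.0378 and 0.0256), and Mcm7 differed by 0.07 (SE 0.17, FDR 0.81). Of the remaining helicase genes at 4 months, Gins3 differed by 0.35 (FDR 0.46), Gins4 by -0.03 (FDR 0.89) and Cdc45, which joins MCM and GINS in the active helicase, by 0.14 (FDR 0.772). None of Mcm2, Mcm3, Mcm4, Mcm5, Mcm6, Mcm7 or Cdc45 was a DEG at 2, 6 or 8 months. At 8 months the Mcm6 signals were 3.28, 3.85 and 4.00 in rTg4510 and 4.08, 4.03 and 4.20 in WT, a log2 difference of -0.39 (SE 0.18, FDR 0.133), so the rTg4510 libraries lay below the WT libraries without passing the test.

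**Figure D3:**
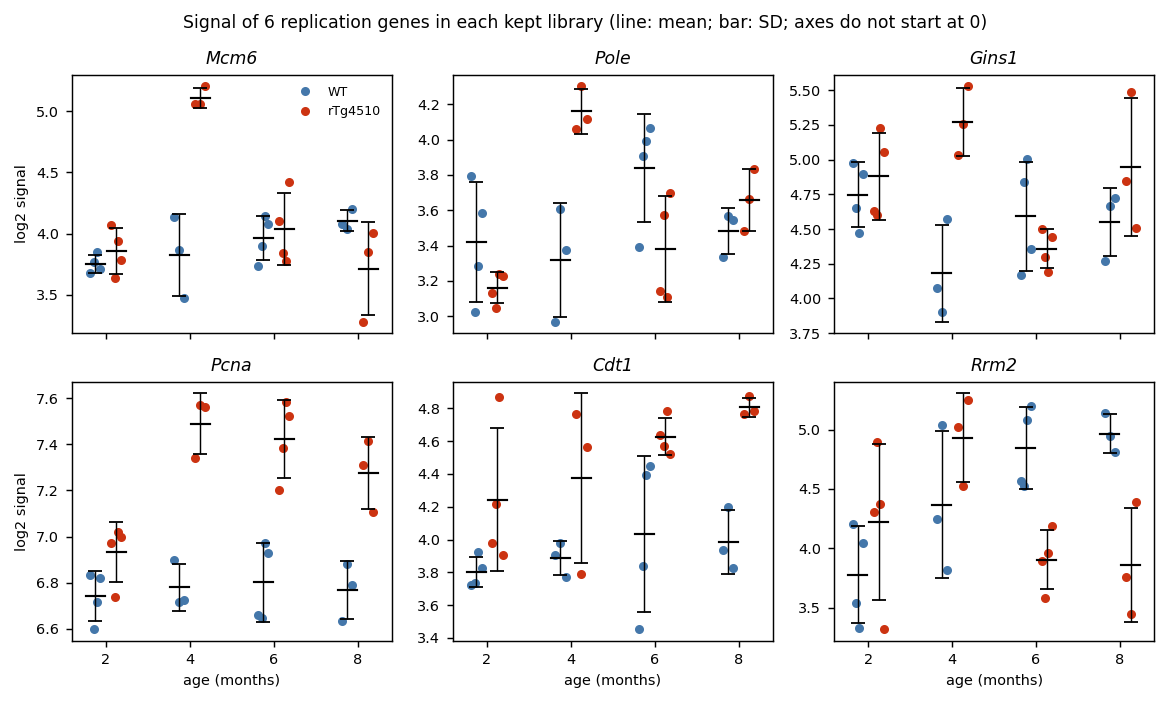
Log2 signal (y axis, not starting at 0) of Mcm6, Pole, Gins1, Pcna, Cdt1 and Rrm2 in each kept library by age in months (x axis), with WT in blue, rTg4510 in red, a line for the group mean and a bar for the SD. Mcm6 in rTg4510 lies at 5.06 to 5.20 at 4 months and at or under 4.42 elsewhere, Pcna in rTg4510 lies above WT from 4 months on, and Rrm2 in rTg4510 lies below WT at 6 and 8 months.

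Among the genes of origin recognition and licensing, Cdt1 was the only DEG, and it was one at 6 and 8 months but not at 4. Cdt1, which brings MCM to origins together with Cdc6, had signals of 4.64, 4.57, 4.78 and 4.52 in rTg4510 and 3.46, 3.84, 4.40 and 4.45 in WT at 6 months (log2 fold change 0.59, SE 0.22, FDR 0.0436). At 8 months it had 4.76, 4.87 and 4.78 in rTg4510 and 3.93, 4.20 and 3.82 in WT (0.82, SE 0.26, FDR 0.0213). All rTg4510 libraries lay above all WT libraries at these ages. The log2 differences at 2 and 4 months were of the same sign, 0.44 (FDR 0.335) and 0.49 (FDR 0.191), but 1 rTg4510 library at 4 months (3.79) lay among the WT libraries. At 6 months the Cdt1 difference was near the limit of 1.5 fold, and the call was lost in 12 of the 28 fits that left out 1 library each, in which the difference ran from 0.40 to 0.73.

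No subunit of the origin recognition complex was a DEG between genotypes. Orc4, a core subunit, had log2 differences of -0.20 (FDR 0.171), -0.28 (FDR 0.0171) and -0.33 (FDR 0.0189) at 4, 6 and 8 months, which passed the FDR at the last 2 ages but not 1.5 fold, and all rTg4510 libraries lay below all WT libraries at these 3 ages. Orc6 passed the FDR at 6 months (-0.44, FDR 0.0313) and Orc2 at 8 months (-0.37, FDR 0.0195). Orc2 shares 29.8% of its exon bases with Nif3l1 on the opposite strand, which differed by 0.41 at 8 months (FDR 0.154). Orc1 shares 10.8% with a gene that was not analysed here. Orc1, the subunit whose level varies most over the cell cycle, had signals of 4.64, 4.52 and 4.50 in rTg4510 and 3.60, 4.24 and 4.39 in WT at 4 months, without overlap, but the difference of 0.48 did not pass (SE 0.21, FDR 0.113). At 8 months its difference was -0.55 (SE 0.21, FDR 0.0593), with all rTg4510 libraries below all WT libraries, and it did not pass either. Cdc6 varied widely between libraries, from 3.22 to 6.13, and its difference of -1.18 at 8 months, the largest in size of any member at that age, had an SE of 0.52 and an FDR of 0.106. Orc3 and Orc5 passed at no age.

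Of the polymerase alpha and primase genes, the catalytic primase subunit Prim1 was higher in rTg4510 at 4 months. Its signals were 5.15, 4.92 and 4.96 in rTg4510 and 4.18, 4.43 and 4.21 in WT (log2 fold change 0.74, SE 0.18, FDR 0.00533), without overlap. The regulatory primase subunit Prim2 was a DEG at no age. It had log2 differences of -0.22, -0.15, -0.23 and -0.41 at 2, 4, 6 and 8 months, of which the last passed the FDR (0.00555) at less than 1.5 fold. The polymerase alpha subunits Pola1 and Pola2 differed by 0.03 and 0.07 at 4 months (FDR 0.917 and 0.75).

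Polymerase epsilon, the leading strand polymerase, differed between genotypes in its catalytic subunit Pole and its second subunit Pole2. Pole had signals of 4.06, 4.30 and 4.12 in rTg4510 and 2.97, 3.61 and 3.38 in WT at 4 months (log2 fold change 0.84, SE 0.20, FDR 0.00403). At 6 months it had 3.14, 3.58, 3.11 and 3.70 in rTg4510 and 3.39, 3.91, 3.99 and 4.07 in WT (-0.46, SE 0.18, FDR 0.0512). The rTg4510 libraries lay above WT at 4 months and overlapped with WT at 6 months. In some libraries Pole was under the level taken as 3 counts. These were WT replicate 1 at 4 months (2.97, level 3.09) and rTg4510 replicate 1 at 2 months (3.13, level 3.51). At 6 months they were rTg4510 replicate 1 (3.14, level 3.24) and WT replicate 1 (3.39, level 3.40). Pole2 had 4.72, 4.51 and 4.64 in rTg4510 and 3.33, 3.87 and 3.95 in WT at 4 months (0.90, SE 0.19, FDR 0.00103), and its difference of 0.58 at 6 months passed the FDR (0.0084) just under 1.5 fold. The small histone-fold subunits Pole3 and Pole4 differed by -0.06 and 0.06 at 4 months (FDR 0.939 and 0.912). Of polymerase delta, the lagging strand polymerase, the catalytic subunit Pold1 and the subunits Pold2 and Pold3 passed at no age. The small accessory subunit Pold4 had differences of 0.58, 0.52, 0.56 and 0.49 at 2, 4, 6 and 8 months, each past the FDR (0.00381, 0.00803, 0.001 and 0.0111) and each under 1.5 fold, and all rTg4510 libraries lay above all WT libraries at every age. At 2 months Pold4 was the only member past the FDR, where 6.03% of all genes were. Of its exon bases, 24.6% are shared with an overlapping gene that was not analysed here.

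Pcna, the sliding clamp, was higher in rTg4510 from 4 months on. Its signals at 4 months were 7.34, 7.57 and 7.56 in rTg4510 and 6.90, 6.72 and 6.72 in WT (log2 fold change 0.71, SE 0.12, FDR 7.83e-05). At 6 months they were 7.20, 7.38, 7.59 and 7.52 in rTg4510 and 6.66, 6.65, 6.97 and 6.93 in WT (0.62, SE 0.10, FDR 4.3e-05). The difference at 8 months, 0.51 (SE 0.12, FDR 0.00203), passed the FDR at less than 1.5 fold, and the groups did not overlap at any of these ages. At 2 months it was 0.19 (FDR 0.366). Reads of Pcna can also be assigned to its processed pseudogene Pcna-ps2, which had a log2 signal of 10.41 to 11.52 in the kept libraries and differences of 0.60 (FDR 0.000883), 0.55 (FDR 0.000334) and 0.43 (FDR 0.0112) at 4, 6 and 8 months, so the split between the copies is uncertain.

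The 5 clamp loader genes gave 1 DEG, Rfc4 at 8 months. At 4 months Rfc3 was lower (-0.35, FDR 0.046) and Rfc2 was higher (0.32, FDR 0.045), both under 1.5 fold, and Rfc1, the large subunit, differed by 0.06 (FDR 0.476). Rfc4 had signals of 4.59, 5.06 and 4.77 in rTg4510 and 4.36, 3.73 and 4.56 in WT at 8 months, without overlap, and a log2 fold change of 0.59 (SE 0.20, FDR 0.0373), just past 1.5 fold. Rfc5 differed by 0.56 at 4 months (FDR 0.162) and 0.56 at 8 months (FDR 0.16). Rfc2 shares 15.1% of its exon bases with Lat2, which was itself a DEG, higher in rTg4510, at the last 3 ages, Rfc4 shares 12.7% with Eif4a2 and Rfc5 10.7% with Wsb2.

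Replication protein A, which coats single-stranded DNA, and the genes that finish the lagging strand held no DEG between genotypes. Rpa3, the smallest subunit, passed the FDR at 4 months (0.47, FDR 0.00674), with signals of 5.89, 6.22 and 6.10 in rTg4510 and 5.74, 5.43 and 5.62 in WT, while Rpa1 and Rpa2 differed by -0.04 and -0.20 (FDR 0.871 and 0.605). Lig1, which seals nicks between Okazaki fragments, had 5.29, 5.15 and 5.14 in rTg4510 and 4.83, 4.55 and 4.67 in WT at 4 months (0.51, SE 0.12, FDR 0.00408, 1.42 fold). For both Rpa3 and Lig1 the groups did not overlap at 4 months. Fen1, the flap nuclease, differed by 0.17 at 4 months (FDR 0.583), and 84.2% of its exon bases are shared with other genes.

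Rrm2, the regulatory subunit of ribonucleotide reductase that limits the enzyme in S phase, was the only member lower in rTg4510 as a DEG. Its signals at 6 months were 3.89, 3.58, 3.96 and 4.19 in rTg4510 and 4.56, 4.53, 5.08 and 5.19 in WT (log2 fold change -0.93, SE 0.31, FDR 0.0247). At 8 months they were 3.76, 3.45 and 4.39 in rTg4510 and 5.14, 4.95 and 4.81 in WT (-1.10, SE 0.36, FDR 0.0279). The groups did not overlap at either age. At 2 and 4 months the differences were 0.44 (FDR 0.552) and 0.56 (FDR 0.29), with overlap. Over age, all WT signals of Rrm2 at 2 months (3.33 to 4.20) lay below those at 6 and 8 months. Its rTg4510 signals at 4 months (4.52 to 5.25) lay above those at 6 and 8 months. The large subunit Rrm1 and thymidylate synthase Tyms passed the FDR at 4 months under 1.5 fold (0.31, FDR 0.0485, and 0.48, FDR 0.0257), and neither passed at 6 or 8 months.

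Of the calls at 6 and 8 months, 2 remained in a fit with the replicate number as a block: Pcna at 6 months and Cdt1 at 8 months. With the block the FDR was 0.0762 for Rrm2 and 0.0562 for Cdt1 at 6 months, and 0.0871 for Rrm2, 0.0554 for Gins2 and 0.117 for Rfc4 at 8 months. All 9 calls at 4 months remained with the block, but fitted on the 6 libraries of that age alone 4 of the 9 remained, where 1561 of all 18588 genes were called. With the excluded libraries added 7 members were called, 5 of them from the 9, where 3033 of all genes were called. Leaving out 1 library at a time gave 8 to 11 calls at 4 months, 1 to 5 at 6 months (1 without WT replicate 2 and 5 without WT replicate 4) and 1 to 4 at 8 months (1 without rTg4510 replicate 2). At 4 months the Mcm2 call was lost without rTg4510 replicate 4 or WT replicate 1 and the Mcm5 call without rTg4510 replicate 1 or WT replicate 4, with FDRs up to 0.0944 and 0.0999, and the other 7 calls were kept in each of the 28 fits. At 6 months Pcna was lost without rTg4510 replicate 3, WT replicate 1 or WT replicate 2 (difference down to 0.57), and Rrm2 without rTg4510 replicate 2, WT replicate 3 or WT replicate 4 (FDR up to 0.0732). At 8 months Rfc4 was lost without rTg4510 replicate 2, rTg4510 replicate 3 or WT replicate 2 (FDR up to 0.237), Rrm2 without replicate 1 or replicate 2 of either genotype (FDR up to 0.131), Gins2 without replicate 3 of either genotype (FDR up to 0.0843), and Cdt1 without rTg4510 replicate 2, WT replicate 1 or WT replicate 3 (FDR up to 0.0766).

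The calls at 6 and 8 months changed with the scale, which the authors set by equal medians. Scaled to the same summed linear signal, 0 members were called higher and 1 lower at 6 months, and 2 higher and 1 lower at 8 months. Of all 18588 genes, 3685 and 2910 were called in either direction at these ages. Scaled to the same sum without Malat1, a long noncoding RNA that held 18.3 to 32.4% of the summed linear signal of a kept library, the median difference of all genes shifted by -0.16, -0.25 and -0.19 at 4, 6 and 8 months. On that scale 6 members were called higher and 0 lower at 4 months, 0 higher and 4 lower at 6 months, and 1 higher and 6 lower at 8 months. Of all 18588 genes, 2946, 4772 and 3383 were called in either direction on that scale, so these counts do not set the members apart from the other genes. The median over the members stayed above 0 at 4 months on each scale (0.10 to 0.29), whereas at 6 months it was 0.02 as deposited, -0.02 with equal sums and -0.23 without Malat1.

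The question whether the genotype effect changed with age was put to the difference between the rTg4510-minus-WT effects at 2 ages. From 2 to 4 months the effect rose in Mcm6, Pole and Lig1 (3 of 45 or 6.67%, where 4.66% of all genes were called). The change was 1.18 for Mcm6 (SE 0.24, FDR 0.00443), 1.10 for Pole (SE 0.27, FDR 0.015) and 0.65 for Lig1 (SE 0.16, FDR 0.0163). For Lig1 all rTg4510 libraries at 2 months (4.75 to 4.866) lay below all WT libraries (4.869 to 5.12). The WT signals of Lig1 were lower at 4 months (4.55 to 4.83) than at 2 months, with an unadjusted p under 0.05 and no call. Its change thus came in part from WT and from the reversed difference at 2 months. The Lig1 call was lost without WT replicate 2 of 4 months (FDR 0.0502), and those of Mcm6 and Pole were kept in each fit that left out 1 library. The Pole call was lost with all 32 libraries, where its change was 0.74. The changes in Pcna (0.52, FDR 0.0415, under 1.5 fold), Gins1 (0.96, FDR 0.0945) and Gins2 (0.88, FDR 0.0982) did not meet both limits.

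From 4 to 6 months the effect fell in Mcm6 alone of the members (-1.21, SE 0.24, FDR 0.0483), where 0.156% of all genes, 29 in number, were called. The Pole change of -1.30 (SE 0.27) had an FDR of 0.0541. The change was below 0 for 34 of 45 members, while it was above 0 for 51.7% of all genes, and the unadjusted p was under 0.05 for 11 of 45, against 8.15% of all genes. The Mcm6 call stood at the threshold and was kept in 5 of the 28 fits that left out 1 library each and in 2 of 7 other settings. It was lost with the replicate block, moderated variances, quantile normalization, all 32 libraries and only the libraries of the ages compared. From 4 to 8 months the Mcm6 effect fell by 1.67 on the log2 scale (SE 0.26, FDR 0.00539, where 0.14% of all genes were called), a call kept in all 28 such fits and lost with the block and with only the libraries of the ages compared. From 6 to 8 months limma called 0 members and 0 of all 18588 genes, and 3 members had an unadjusted p under 0.05, against 4.52% of all genes, with 0 called under moderated variances too. These contrasts share libraries with each other and with the comparisons at each age.

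Within rTg4510, 6 members rose from 2 to 4 months (13.3%, where 6.39% of all genes were called): Gins2, Mcm5, Mcm6, Orc1, Pole and Prim1. Mcm6 rose by 1.25 (SE 0.17, FDR 3.26e-05), Pole by 0.999 (SE 0.19, FDR 0.00104) and Orc1 by 0.94 (SE 0.20, FDR 0.00207). Orc1 also rose on average in WT, from 3.77, 3.85, 3.23 and 3.22 at 2 months to 3.60, 4.24 and 4.39 at 4 months. That rise had an unadjusted p under 0.05 and no call. At 2 months Orc1 lay under the level taken as 3 counts in rTg4510 replicate 1 (3.26, level 3.51) and WT replicate 4 (3.22, level 3.33). From 4 to 6 months Mcm6 (-1.07, SE 0.17, FDR 0.00246) and Pole (-0.78, SE 0.19, FDR 0.0397) fell, 4.44% of the members where 0.818% of all genes were called. From 6 to 8 months no member was called in rTg4510, where 0.00538% of all genes were called and 7 members had an unadjusted p under 0.05, against 14.4% of all genes. In WT no member was called from 2 to 4, 4 to 6 or 6 to 8 months (0.0484%, 0.00538% and 0% of all genes), and 5, 1 and 1 members had an unadjusted p under 0.05, against 10.2%, 8.65% and 9.78% of all genes. With moderated variances these counts of 0 in rTg4510 and WT stayed at 0.

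The other genes of the pathway were read from 5 lists that do not overlap the members. Of 23 origin firing and fork factors, 1, 5, 2 and 1 were higher and none was lower at 2, 4, 6 and 8 months. Among all genes 1.58%, 9.47%, 11.3% and 10.5% were higher at these ages and 0.403%, 4.33%, 8.54% and 5.37% were lower, so the counts of 2 and 1 of 23 at 6 and 8 months are below the share among all genes. The 5 at 4 months were Dna2, Gmnn, Timeless, Wdhd1 and Rnaseh2b. Dna2, a nuclease and helicase that trims flaps and resected ends, was higher at every age, with log2 fold changes of 0.81 (FDR 0.000611), 2.15 (FDR 2.04e-09), 1.84 (FDR 7.43e-10) and 1.83 (FDR 1.41e-08), where 2 of 3 WT libraries at 4 months lay at or under the level taken as 3 counts. Gmnn, the inhibitor of Cdt1, was higher at 4 months (1.12, SE 0.27, FDR 0.00348) and 6 months (0.80, SE 0.23, FDR 0.0104). Timeless, a fork protection factor, was higher by 1.28 (FDR 0.00283) and Wdhd1, which ties polymerase alpha to the helicase, by 0.97 (FDR 1.22e-05) at 4 months.

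Of 11 chromatin duplication genes, Chaf1a, a histone chaperone subunit (1.13, FDR 0.0134), and Uhrf1, which brings the maintenance DNA methyltransferase to replicated DNA (1.35, FDR 0.000509), were higher at 4 months. Of 21 S phase regulators, E2f1, a transcription factor of the E2F family, was higher at 4 months (1.32, SE 0.31, FDR 0.00345) and so was Wee1, an inhibitory kinase of Cdk1 (1.27, FDR 0.00287). E2f3 was lower at 4, 6 and 8 months (-0.60, -0.90 and -0.75), and the cyclin gene Ccna2 was lower at 6 months (-0.85, FDR 0.00252). Of 20 further genes of nucleotide supply, Nme1, a nucleoside diphosphate kinase, was higher at 4, 6 and 8 months (0.81, 0.78 and 0.69), Ctps, which makes CTP, was lower at 6 and 8 months (-1.13 and -0.90) and Impdh1, an enzyme of guanine nucleotide synthesis, was higher at 8 months (1.24). Among all genes 9.47%, 11.3% and 10.5% were higher and 4.33%, 8.54% and 5.37% lower at 4, 6 and 8 months. The genes named here do not show that any of these lists was higher as a whole.

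Of the 30 mitosis genes, 9 were higher and 1 was lower at 4 months (median 0.62), where 9.47% of all genes were higher and 4.33% lower. At 6 months 18 of 30 were lower and none was higher (median -0.72), where 8.54% of all genes were lower, and at 8 months 8 of 30 were lower and none was higher (median -0.59), where 5.37% of all genes were lower. The median over all genes was -0.04, -0.04 and -0.01 at the 3 ages. Mki67, the gene of the proliferation antigen Ki-67, had a log2 fold change of 0.83 at 4 months (FDR 0.00046), -1.13 at 6 months (FDR 1.24e-06) and -0.62 at 8 months (FDR 0.00534). Top2a, the topoisomerase that untangles sister chromatids, had 1.01 (FDR 0.000718), -0.90 (FDR 0.000352) and -0.85 (FDR 0.00303). The change of the genotype effect from 4 to 6 months was called for 6 of the 30, all lower, and for 1 of the 45 replication genes. The median difference of the replication genes was 0.02 at 6 months and -0.02 at 8 months, and the difference between the lists was not tested.

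**Figure D4:**
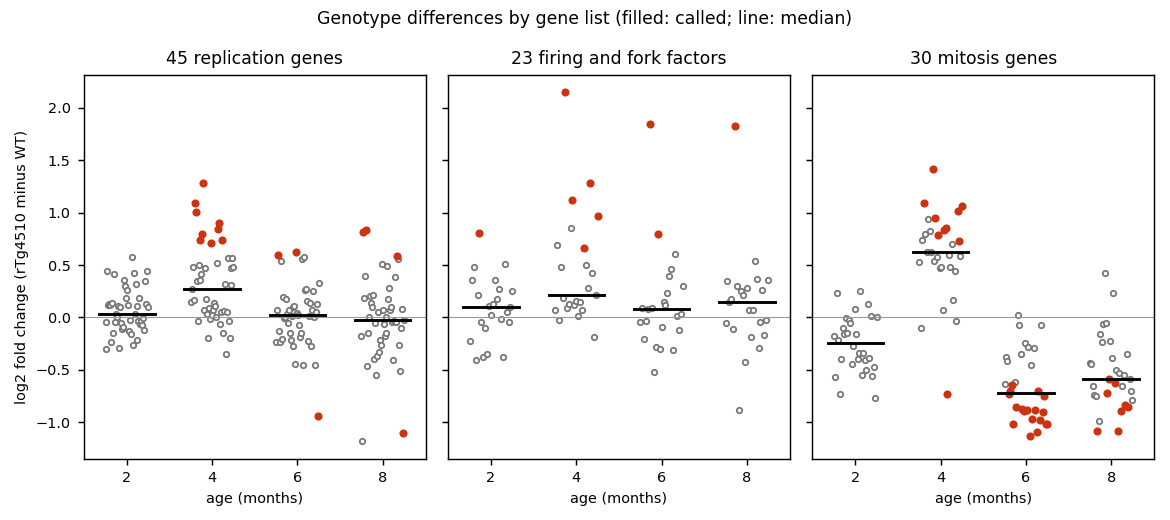
Log2 fold change (rTg4510 minus WT, y axis) by age in months (x axis) for the 45 replication genes, 23 origin firing and fork factors and 30 mitosis genes, with 1 point per gene, filled red for DEGs, and a line for the median. The medians of the replication and mitosis lists are 0.27 and 0.62 at 4 months and 0.02 and -0.72 at 6 months.

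Genes of other cell types moved with some of these results. Of 8 neutrophil markers, whose bone marrow precursors divide, none was a DEG at 2 or 4 months, 7 were lower in rTg4510 at 6 months and 5 at 8 months, the ages at which Rrm2 was lower and 18 and 8 of the 30 mitosis genes were. The summed neutrophil signal at 6 months ran from 7.41 to 8.13 in rTg4510 and from 9.03 to 10.32 in WT, and at 8 months from 7.76 to 9.10 and from 10.01 to 10.35. At 4 months, where 9 of the 45 replication genes were higher, it ran from 8.20 to 8.98 in rTg4510 and from 9.13 to 10.03 in WT. Mpo and Elane, which mark neutrophil precursors, differed by -2.42 (FDR 0.0102) and -2.22 (FDR 0.0261) at 6 months. Of 5 neural progenitor markers 3 were analysed. Nes was higher at every age, by 1.18 at 2 months (FDR 0.00206), where no replication gene was called, and by 2.35 (FDR 6.2e-07), 2.17 and 1.57 at 4, 6 and 8 months. Sox2 and Dcx were not called at 4 months (-0.37, FDR 0.787, and -0.26, FDR 0.92), and Sox2 was lower at 6 months (-1.97, FDR 0.0269). The summed progenitor signal at 4 months ran from 6.02 to 6.42 in rTg4510 and from 4.64 to 4.83 in WT. Of 5 monocyte markers 1 was lower at 4 months and 3 at 6 months, and of 4 B cell markers 2 were lower at 4 months. Of 6 oligodendrocyte precursor markers, Cspg4 was higher at 4, 6 and 8 months (2.98, FDR 3.87e-09, then 2.98 and 2.63), the other 5 were not called at 4 months (-2.04 to -0.16), and Pdgfra was lower at 6 months (-1.92). The summed precursor signal at 4 months overlapped between genotypes, from 6.33 to 7.17 in rTg4510 and from 6.64 to 7.68 in WT. Of 5 endothelial markers, Flt1 was higher and Pecam1 lower at 4 months (0.98, FDR 0.0137, and -1.35, FDR 1.76e-06), 1 was higher and 3 lower at 6 months, and 1 was higher and 1 lower at 8 months, and their summed signal at 4 months ran from 7.25 to 7.83 in rTg4510 and from 7.42 to 8.51 in WT. Of 6 astrocyte markers none was called at 2 or 4 months, Gfap was higher at 6 and 8 months (1.52 and 1.80), and 2 and 3 were lower at these ages, Aqp4 and Slc1a3 at both and Slc1a2 at 8 months. Their summed signal ran from 9.49 to 9.77 in rTg4510 and from 10.21 to 10.45 in WT at 6 months. Of 5 border macrophage markers and of 2 neuron markers 1 each was lower at 6 months, and none of 6 oligodendrocyte or 3 T cell markers was called at any age. Their part in the results on the replication genes was not tested. Of the 8 microglial markers, none was a DEG at 2 months, 1 was lower at 4 months, 1 was higher and 2 lower at 6 months, and 1 was higher and 1 lower at 8 months, and their summed signal at 4 months was 14.67 to 14.77 in rTg4510 and 14.85 to 15.07 in WT.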

How the data were processed

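The 1 deposited table holds log2 gene signals of 18588 genes in 32 libraries. Per the labels and methods, the authors summed reads per exon over runs, dropped exons with under 10 counts in over 80% of samples, fitted a robust linear model over exons, took log2 values and normalized each library to the same median. The build is GRCm38 by the submitters' processing notes, and the aligner is not given in the sources used here. Libraries were pools of animals, and p-values measure the spread between pools.

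Entrez identifiers were matched to RefSeq symbols for 17828 rows. All 28 kept libraries entered 1 limma fit (limma 3.58.1, R 4.3.3) as 8 group means with unmoderated variances, after the study's factorial model, with Benjamini-Hochberg FDRs over all genes of a contrast. The fit was tested on simulated data. Alternatives were moderated variances, quantile normalization, equal summed linear signal, a filter at the 25th percentile of mean signal, all 32 libraries, only the ages compared, the replicate number as a block, and leaving out each library. Scaling without the gene of largest signal was added after seeing the data. The floor of a library was its lowest value plus the log2 of (3 + 1.5)/1.5. This reads the lowest value as no counts with an offset of 1.5 added, an inference from the values. Exon overlaps come from the GENCODE annotation of GRCm38, and promoters from RefSeq.

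All 45 members could be named. The members and lists were chosen with earlier results of these data known. The result of 1 gene of the chromatin duplication list is not reported here. Same-numbered WT and rTg4510 libraries deviated together at 6 months (r = 0.131 to 0.153 across genes) and 8 months (0.15 to 0.291), with every pair over 0.1. At 2 months all 4 pairs were above 0 and 3 were over 0.1 (0.0649 to 0.167), and at 4 months 1 of 3 was (-0.0999 to 0.124). The fit with the replicate block took the numbers as pairs at every age, and the main fit did not use them. The sources do not say what a number marks.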

Additional observations from a re-analysis of the deposited data

Results flagged for a closer look

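The rTg4510-minus-WT effect differed between ages by a test of the difference itself (limma, FDR over all genes) in 5 cases. From 2 to 4 months it rose by 1.18 for Mcm6 (FDR 0.00443), 1.10 for Pole (FDR 0.015) and 0.65 for Lig1 (FDR 0.0163). For Mcm6 it then changed by -1.21 from 4 to 6 months (FDR 0.0483) and by -1.67 from 4 to 8 months (FDR 0.00539). The call from 4 to 6 months was kept in 5 of 28 fits that left out 1 library and in 2 of 7 other settings.

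In 10 of the 180 groups of 4 libraries over the 45 members, 1 library lay apart from the other 3 by Dixon's criterion, where chance gives about 1 in 20 groups. Below the others lay Orc1 in rTg4510 replicate 3 at 6 months (3.79, others from 4.02), Orc2 in rTg4510 replicate 1 at 2 months (5.34, others from 5.52), Pold2 in WT replicate 1 at 2 months (4.54, others from 4.9998) and Pole3 in WT replicate 2 at 2 months (3.51, others from 4.49). So did Pole4 in rTg4510 replicate 4 at 2 months (4.92, others from 5.31), Pcna in rTg4510 replicate 2 at 2 months (6.74, others from 6.97) and Rfc4 in rTg4510 replicate 2 at 2 months (3.90, others from 4.45). Above the others lay Pola1 in rTg4510 replicate 1 at 6 months (4.94, others up to 4.67), Pole3 in rTg4510 replicate 2 at 2 months (4.91, others up to 4.18) and Rfc3 in rTg4510 replicate 2 at 6 months (5.15, others up to 4.91). Of the 10, 3 are rTg4510 replicate 2 at 2 months.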

How the results depend on the processing

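Over the 16 called genotype differences of single members, 498 of 566 alternative values kept their call, 68 lost it and 0 changed sign. For each difference 28 of these values came from leaving out 1 library, and 7 or 8 came from the other settings. Leaving out a library of a group not compared cannot move the difference, so the pooled count says little of the other settings. Among those, the calls lost ran from 0 for Mcm6 and Gins2 at 4 months to 5 of 7 for Cdt1 at 6 months. Mcm6 and Gins2 at 4 months kept it in every alternative run, Mcm6 having no value under the filter on low signal, which left 31 members. With that filter the counts of called members were 4 at 4 months, 1 at 6 and 1 at 8 months, 1 for the effect at 4 against 2 months, 0 at 6 against 4 and 0 at 8 against 4 months, and within rTg4510 1 from 2 to 4 and 0 from 4 to 6 months. Of the 13941 genes left, 2113, 2870 and 2416 were called at 4, 6 and 8 months. The called share of the 31 members was thus below that of all genes, also at 4 months. Mcm5, Mcm6, Pole, Pole2 and Prim1, called at 4 months in the main fit, were among the members removed. With only the libraries of the ages compared the counts were 4 at 4 months and 1 at 8 months, 0 at 6 against 4 and 0 at 8 against 4 months, and 1 from 4 to 6 months in rTg4510. With the replicate block they were 1 at 6 months and 1 at 8 months, 0 at 6 against 4 and 0 at 8 against 4 months, it changed no count at 2 months, 4 months, 4 against 2 or 8 against 6 months, and it was not fitted for ages within a genotype. With all 32 libraries they were 1 at 6 months, 0 at 6 against 4 months and 1 from 4 to 6 months in rTg4510. Equal summed linear signal gave 1 at 6 months, 2 at 6 against 4 months and 4 from 4 to 6 months in rTg4510, and without the largest gene 7 at 8 months, 2 at 6 against 4 months and 4 from 4 to 6 months. Quantile normalization gave 0 at 6 against 4 months and 1 from 4 to 6 months in rTg4510, and moderated variances 0 at 6 against 4 months. The filter removes members of low signal, called ones among them, and the smaller sets of libraries have fewer degrees of freedom. For the other settings the cause was not tested. Without 1 library each the counts ran from 0 to 1 at 2 months, 8 to 11 at 4, 1 to 5 at 6 and 1 to 4 at 8 months, 2 to 4 at 4 against 2, 0 to 2 at 6 against 4, 0 to 0 at 8 against 6 and 1 to 1 at 8 against 4 months, and within rTg4510 4 to 6, 1 to 4 and 0 to 0 from 2 to 4, 4 to 6 and 6 to 8 months. All WT age counts stayed at 0. The table of signals holds no read totals, so no counting limit can be given.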
